A study of Sus scrofa with 16 samples.

Results

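Messenger RNA of 4 genes, CYB5A, CYB5B, HSD17B4 and HSD17B12, was followed through the growth and elongation of the pig conceptus, the embryo with its extraembryonic membranes. They were taken by symbol from the platform annotation, where each was measured by 1 probe: probe 510 for CYB5A (Entrez gene 414799), probe 701 for CYB5B (Entrez gene 100286856), probe 927 for HSD17B4 (Entrez gene 397574) and probe 77 for HSD17B12 (Entrez gene 100312972). They are 4 of 638 genes named by a probe with a single symbol, on a membrane of 1015 probes. Whole pig embryos, with no treatment named, fell into 4 stages by shape and length: small spherical embryos of 1 to 5 mm, large spherical ones of 6 to 11 mm, tubular ones of 13 to 45 mm and filamentous ones longer than 100 mm. Each stage had 4 arrays, hybridised with radioactively labelled, amplified RNA, and values are linear intensities as deposited, in arbitrary units.

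Cytochrome b5 is a small haem protein that passes electrons to enzymes in membranes. CYB5A sits in the endoplasmic reticulum, where it serves fatty acid desaturation and aids the lyase reaction by which CYP17A1 makes androgens. CYB5B is the form of the outer mitochondrial membrane. The HSD17B enzymes are dehydrogenases and reductases, named for steroids but often acting on fatty acids. HSD17B4 is the multifunctional enzyme of peroxisomal beta-oxidation and can turn oestradiol into oestrone. HSD17B12 is the ketoacyl-CoA reductase of fatty acid elongation in the endoplasmic reticulum and can reduce oestrone to oestradiol. Elongating pig conceptuses are known to secrete oestrogens, which signal pregnancy to the mother. The symbols alone do not show which of these reactions the transcripts served here.

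Array medians lay between 62.8 and 71.4. Arrays of the same stage had rank correlations of 0.841 to 0.96 over all probes, and arrays of different stages 0.795 to 0.974. No 2 arrays held identical values. Whether a stage's arrays stem from different animals or litters is not stated, so each p-value refers to the spread of these samples and no more. The 4 arrays numbered 1 had the highest scores on the first principal component, at 8.17 to 16.3 against -9.40 to 4.25 for the others. By mean rank correlation 12 of the 16 arrays lay closer to another stage than to their own, small spherical replicate 3 among them and filamentous replicate 1 not. Values for arrays left out singly, for the arrays numbered 2 to 4 alone, and without the pair just named, which was chosen from earlier results of these data, are given where they change a call. In RNA from whole embryos, fewer cells of a type and less RNA per cell cannot be told apart. The number of arrays limits the precision.

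All 4 genes had their lowest mean in small spherical embryos. CYB5A, HSD17B4 and HSD17B12 had their highest mean in large spherical embryos, and CYB5B in filamentous ones. In the limma F test over the 4 stages none of the 4 passed an adjusted p of 0.05, the threshold used throughout, where 0.394% of 1014 probes did. The adjusted p was 0.142 for CYB5A, 0.349 for HSD17B4, 0.474 for CYB5B and 0.479 for HSD17B12, and each of the 4 had an unadjusted p under 0.05, as had 105 of the 1014 probes. CYB5A passed without small spherical replicate 1 (adjusted p = 0.0292), where 3 of 1014 probes did. That array held its highest small spherical reading, so leaving it out raises its differences from small spherical embryos by construction.

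**Figure D1:**
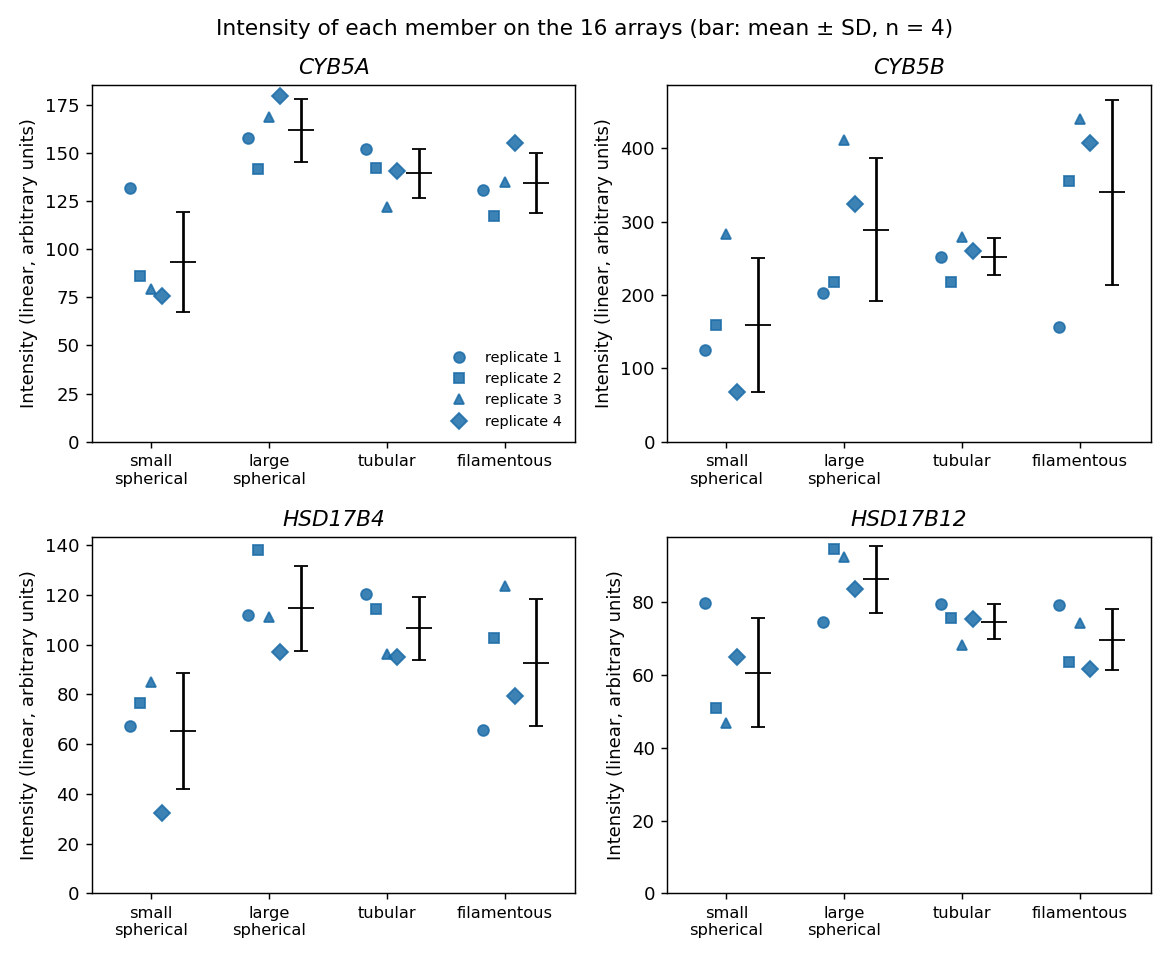
Linear intensity (arbitrary units) of CYB5A, CYB5B, HSD17B4 and HSD17B12 on the 16 arrays by stage, with a marker shape for each replicate number and the mean ± SD of 4 arrays as a bar. CYB5A read 141 or more on every large spherical array and 132 or less on every small spherical one, whereas the stages overlap for CYB5B.

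CYB5A had the smallest p of the 4 genes between small and large spherical embryos. Its small spherical arrays read 132, 86.1, 79.4 and 75.9 for replicates 1 to 4, and its large spherical arrays 158, 141, 169 and 179.7. All 4 large spherical values lay above all 4 small spherical ones, and replicate 1 was the highest small spherical array by a wide gap. Tubular embryos read 152, 142, 122 and 141, and filamentous embryos 131, 117, 135 and 155. Of the 12 arrays of later stages, 9 exceeded the highest small spherical array and all 12 exceeded the small spherical mean.

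By mean, the order for CYB5A was large spherical (162 ± 16.3, SD, n = 4), tubular (139 ± 12.5), filamentous (134 ± 15.7) and small spherical (93.2 ± 25.9). No pair of neighbours in this order passed the limma test: the log2 difference was -0.21 for tubular minus large spherical (adjusted p = 0.999), -0.06 for filamentous minus tubular (0.994) and 0.56 for filamentous minus small spherical (0.155). The difference across the order, large minus small spherical, was 0.83 ± 0.18 (SE), a 1.77-fold higher level with a 95% interval of 1.36 to 2.31, and narrowly missed the threshold (adjusted p = 0.0545). This p ranked 5 of 1014 probes. CYB5A passed without small spherical replicate 1 (1.00, adjusted p = 0.00554) and without filamentous replicate 1 (0.83, adjusted p = 0.0491). Small spherical replicate 1 held the highest small spherical reading of CYB5A, so leaving it out raises this difference by construction. In that setting 4 of 1014 probes passed, as with all arrays. On the 12 arrays numbered 2 to 4 the difference was 1.02 and passed (adjusted p = 0.0172), and on the arrays numbered 1 it was 0.26. The arrays numbered 2 to 4 leave out the same highest small spherical reading.

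CYB5B, the mitochondrial form, had the highest SD of the 4 on the log2 scale in every stage but the tubular one. Its small spherical arrays read 124, 159.7, 283 and 68.2 for replicates 1 to 4, and its large spherical arrays 203, 218, 412 and 324. Small spherical replicate 3 lay above 2 of the large spherical arrays, so the stages overlapped. Tubular embryos stayed within 218 to 279. Filamentous embryos read 157, 355, 439.5 and 407, so 3 arrays exceeded every small spherical value and replicate 1 did not.

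The order of means for CYB5B was filamentous (339.8 ± 127, SD, n = 4), large spherical (289 ± 97.6), tubular (252 ± 25.2) and small spherical (159 ± 91.1). Neighbouring stages did not differ past the threshold, with log2 differences of 0.19 for filamentous minus large spherical (adjusted p = 0.983), -0.14 for tubular minus large spherical (0.999) and 0.84 for tubular minus small spherical (0.434). The last was 0.50 without small spherical replicate 4 and 1.18 without replicate 3. Filamentous minus small spherical was 1.17 ± 0.39 (SE), or 2.26-fold with a 95% interval of 1.26 to 4.04, and did not pass (adjusted p = 0.173). It passed without small spherical replicate 3 (1.51, adjusted p = 0.04), and with filamentous replicate 1 left out as well (1.85, adjusted p = 0.00931). These were the highest small spherical and the lowest filamentous reading of CYB5B, so leaving them out raises this difference by construction. The pair was chosen from earlier results of these data. Without small spherical replicate 3 alone, 28 of 1014 probes passed in filamentous minus small spherical, against 9 with all arrays. Large minus small spherical was 0.99 ± 0.39 (adjusted p = 0.362) and passed with those 2 arrays left out (1.32, adjusted p = 0.0305). Without small spherical replicate 4 it was 0.64. In order of growth the SD of CYB5B on the log2 scale was 0.85, 0.48, 0.15 and 0.68, where the median SD over 1014 probes was 0.33, 0.36, 0.31 and 0.34.

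HSD17B4, the peroxisomal enzyme, was the other member with separate spherical stages. Its small spherical arrays read 67.3, 76.5, 85.1 and 32.3 for replicates 1 to 4, its large spherical arrays 112, 138, 111 and 97.2, and its tubular arrays 120.3, 114, 96.2 and 95.1. Every large spherical and every tubular array exceeded every small spherical one. Filamentous embryos read 65.5, 103, 123 and 79.3, and replicates 1 and 4 fell within the small spherical range. Of the 12 later arrays, 10 exceeded the highest small spherical value.

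Means of HSD17B4 ran from large spherical (115 ± 17.0, SD, n = 4) through tubular (106 ± 12.7) and filamentous (92.7 ± 25.6) to small spherical (65.3 ± 23.2). The neighbours differed by -0.10 (tubular minus large spherical, adjusted p = 0.999), -0.23 (filamentous minus tubular, 0.994) and 0.55 (filamentous minus small spherical, 0.379) on the log2 scale, none past the threshold. Large minus small spherical was 0.89 ± 0.27 (SE), or 1.85-fold with a 95% interval of 1.24 to 2.78 (adjusted p = 0.165), and tubular minus small spherical 0.79 ± 0.27 (adjusted p = 0.198). Small spherical replicate 4 gave the lowest reading, and without it these differences were 0.58 and 0.48. None of the 29 alternative settings brought HSD17B4 past the threshold in the first of these, where its adjusted p ran from 0.0561 to 0.417.

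HSD17B12, the elongation reductase, had the smallest differences of the 4 from small spherical embryos, in each of the 3 later stages. Its small spherical arrays read 79.8, 51.0, 47.0 and 65.0 for replicates 1 to 4, and its large spherical arrays 74.5, 94.7, 92.5 and 83.7. Large spherical replicate 1 lay below small spherical replicate 1, and the other 3 large spherical arrays lay above every small spherical one. Tubular embryos read 68.2 to 79.6 and filamentous embryos 61.6 to 79.2, all within the small spherical range though above its mean.

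The means of HSD17B12 were 86.4 ± 9.20 (SD, n = 4) in large spherical, 74.7 ± 4.76 in tubular, 69.7 ± 8.42 in filamentous and 60.7 ± 14.9 in small spherical embryos. Neighbours in this order differed by -0.20 (adjusted p = 0.999), -0.11 (0.994) and 0.22 (0.633) on the log2 scale, the last as filamentous minus small spherical, which was 0.11 without small spherical replicate 3 and 0.37 without replicate 1. Large minus small spherical was 0.53 ± 0.17 (SE), or 1.45-fold with a 95% interval of 1.12 to 1.87 (adjusted p = 0.192). Of its 29 alternative settings none passed, with adjusted p from 0.0902 to 0.472. Filamentous minus large spherical was -0.31 ± 0.17 (adjusted p = 0.722).

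Set side by side, the first step of growth had the same sign in all 4 genes. From small to large spherical embryos the members had a median log2 difference of 0.86, with 4 of 4 positive, and the median over all 1014 probes was -0.03. By limma 0 of the 4 passed, where 0.394% of all probes did, and all 4 had an unadjusted p under 0.05 with a higher level in large spherical embryos, as had 7.2% of all probes. The members were chosen with earlier results of these data known, so such shares are descriptions and not a test of the group. Non-overlapping stages, higher in large spherical embryos, were seen in 2 of the 4 (CYB5A and HSD17B4) and in 3.85% of all probes. The arrays numbered 1 deviated together between any 2 stages (correlations of 0.27 to 0.495). In small and large spherical embryos the other arrays with the same number did so too, a pairing seen in the data and not given by the labels. By such pairs CYB5A, CYB5B and HSD17B4 were higher in large spherical embryos in 4 of 4 pairs, as were 11.8% of all probes, and HSD17B12 in 3 of 4. For CYB5A and HSD17B4 this follows from their non-overlapping stages and adds nothing to them. The pairs of CYB5A differed by 0.26, 0.71, 1.09 and 1.24 on the log2 scale, those of HSD17B4 by 0.73, 0.85, 0.39 and 1.59, those of CYB5B by 0.71, 0.45, 0.54 and 2.25, and those of HSD17B12 by -0.10, 0.89, 0.98 and 0.37. The pair numbered 4 thus had the largest difference in CYB5A, CYB5B and HSD17B4.

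**Figure D2:**
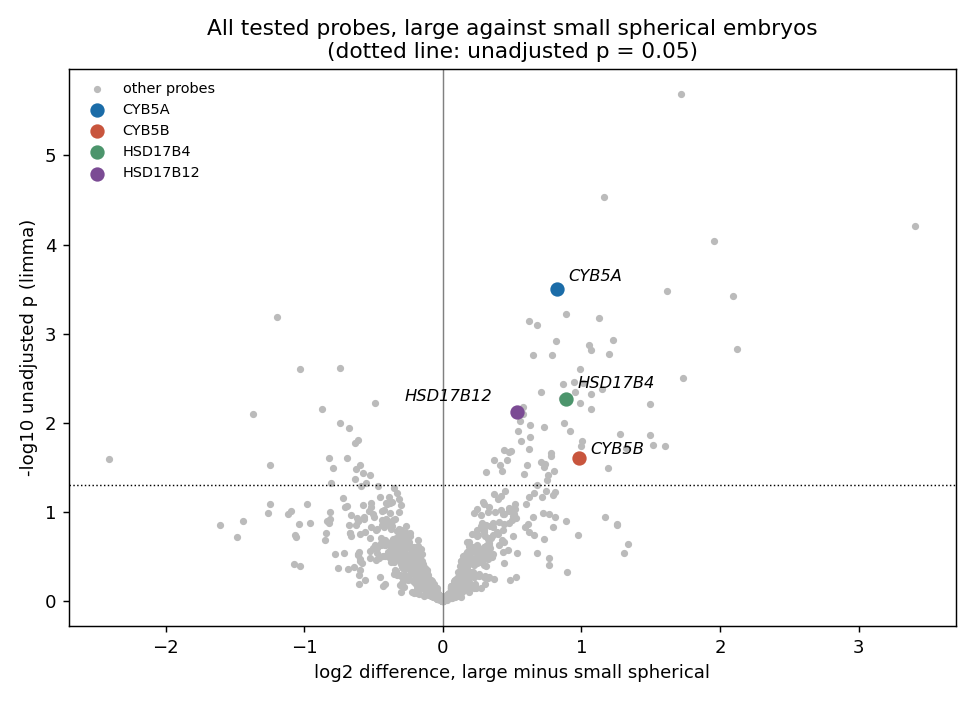
Log2 difference between large and small spherical embryos against the -log10 unadjusted p of the limma fit for 1014 probes, with the 4 members in colour. All 4 lie on the side of higher levels in large spherical embryos and above the dotted line of the unadjusted threshold, and CYB5A is highest among them.

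In tubular against small spherical embryos, the median of the members was 0.70 and that of all probes -0.06. Of the 4, 0 passed by limma, where 0.394% of all probes did, and 3 (CYB5A, CYB5B and HSD17B4) had an unadjusted p under 0.05 and a higher level, as had 7.4% of all probes. HSD17B4 alone of the 4 did not overlap, as did 4.54% of all probes in this direction. CYB5A differed by 0.61 ± 0.18 (SE, adjusted p = 0.134). It passed without small spherical replicate 1, its highest small spherical reading (0.79, adjusted p = 0.0324), where 5 of 1014 probes did. HSD17B12 differed by 0.33 ± 0.17 (adjusted p = 0.51).

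In filamentous against small spherical embryos the median of the members was 0.56, that of all probes -0.03, and 0 of the 4 passed by limma, where 0.888% of all probes did. CYB5A and CYB5B had an unadjusted p under 0.05 and a higher level, as had 9.57% of all probes. None of the 4 had non-overlapping stages, where 4.54% of all probes did in this direction. CYB5A, at 0.56 ± 0.18, passed without small spherical replicate 1, its highest small spherical reading (0.73, adjusted p = 0.0426), where 6 of 1014 probes did. HSD17B4 differed by 0.55 ± 0.27 (SE), and by 0.25 without small spherical replicate 4. Because each of the 3 contrasts above uses the same 4 small spherical arrays, they are not independent.

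After the large spherical stage no member passed in any contrast, nor did any of the 1014 probes (0% each in tubular minus large spherical, filamentous minus tubular and filamentous minus large spherical, by limma). An unadjusted p under 0.05 was reached by 33, 34 and 61 probes in these contrasts, none of them a member. From large spherical to filamentous embryos the difference was -0.27 ± 0.18 (SE) for CYB5A, -0.34 ± 0.27 for HSD17B4, -0.31 ± 0.17 for HSD17B12 and 0.19 ± 0.39 for CYB5B. The 95% intervals of all 4 held 0, running for CYB5A from -0.65 to 0.11 and for CYB5B from -0.65 to 1.03.

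**Figure D3:**
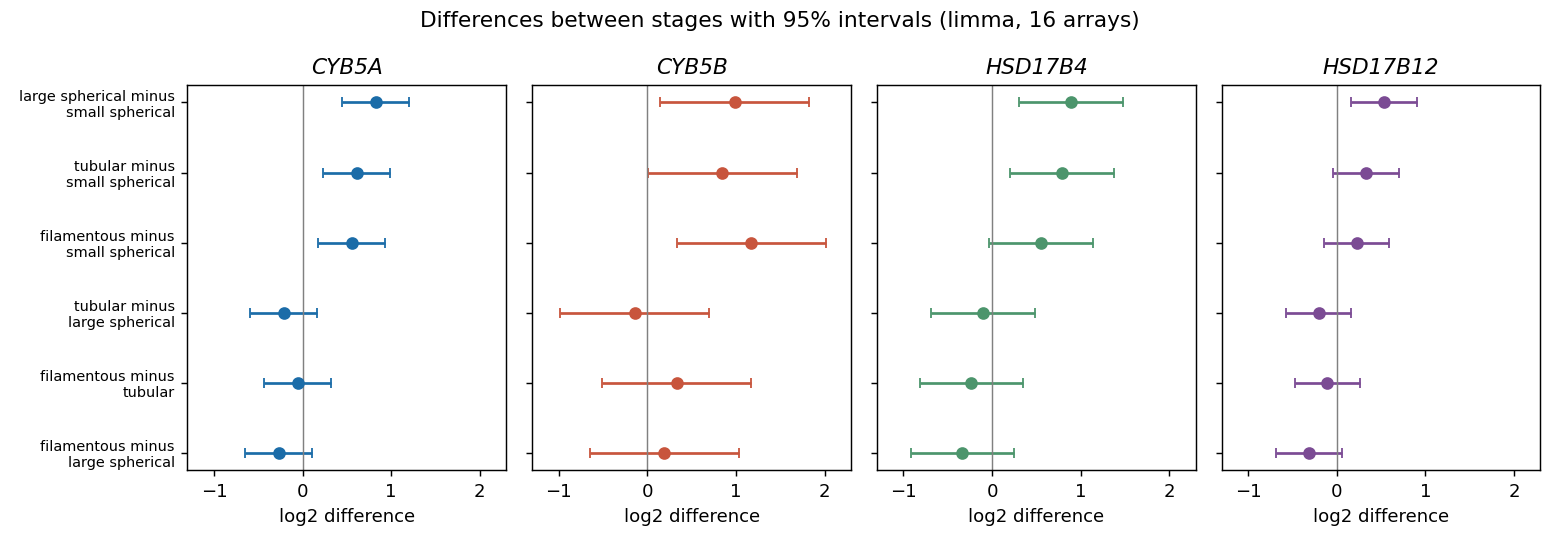
Log2 difference between each pair of stages for the 4 members, with 95% intervals from the limma fit to 16 arrays. Intervals for large minus small spherical lie above 0 for all 4 genes, and those of the 3 contrasts among later stages hold 0.

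Whether the members of a family differed in their change was tested on the log2 ratio of their intensities within each array. CYB5B over CYB5A averaged 0.62 ± 0.94 (SD, n = 4) in small spherical and 0.78 ± 0.39 in large spherical embryos, and 0.85 ± 0.25 in tubular and 1.24 ± 0.66 in filamentous ones. The small spherical arrays alone spanned -0.15 to 1.84, so a shift of the ratio could not be seen against them. The difference of filamentous from small spherical embryos was 0.62 (exact two-sided permutation test, p = 0.314, 0.8 after adjustment over 6 tests). HSD17B12 over HSD17B4 was lower by 0.36 in large spherical embryos, with -0.40 ± 0.19 against -0.05 ± 0.85 (exact permutation p = 0.486, adjusted p = 0.8). None of the 6 tests passed. The smallest p that 4 against 4 arrays can give is 0.0286, or 0.171 after adjustment where 1 test alone reaches it, and 4 of the 6 would have to reach it for any to pass, so these tests say little about whether the members changed alike.

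**Figure D4:**
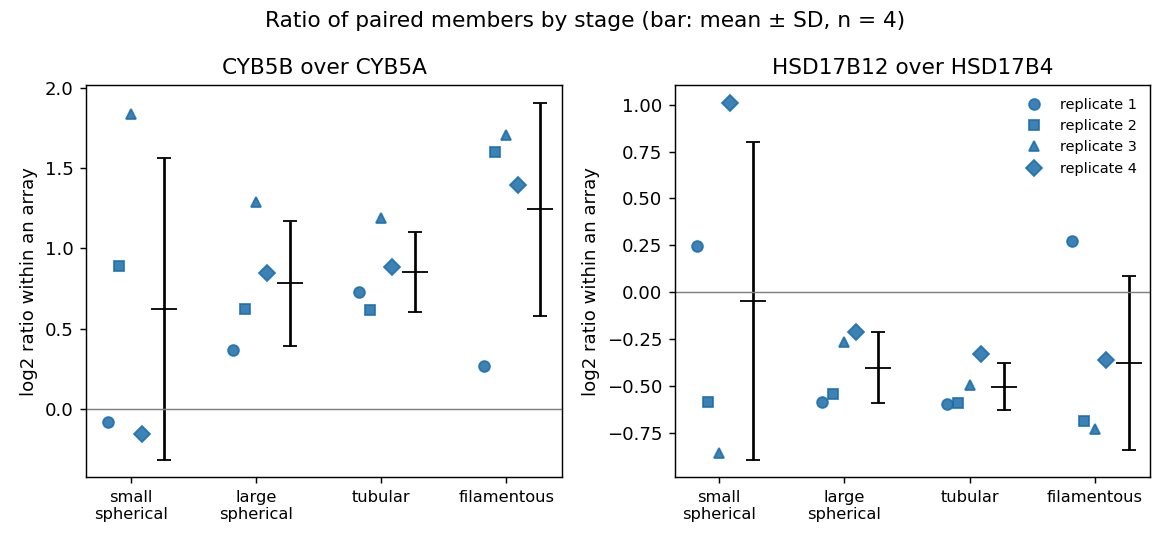
Log2 ratio of CYB5B over CYB5A and of HSD17B12 over HSD17B4 within each of the 16 arrays, by stage, with a marker shape for each replicate number and the mean ± SD of 4 arrays as a bar. The small spherical arrays span -0.15 to 1.84 in the first and -0.86 to 1.01 in the second, wider than any other stage.

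The log2 SD in small spherical embryos was 0.85 for CYB5B and 0.63 for HSD17B4, and 0.36 for CYB5A and 0.35 for HSD17B12, near the median of 0.33 over all probes. The arrays that lay far from the stage mean differed between genes. Relative to the stage mean on the log2 scale, replicate 1 was high for CYB5A (0.53) and HSD17B12 (0.43) but not for CYB5B (-0.17). Replicate 4 was low for CYB5B (-1.04) and HSD17B4 (-0.93), less so for CYB5A (-0.26), and not for HSD17B12 (0.13). Replicate 3 was high for CYB5B (1.02) and HSD17B4 (0.47) and low for HSD17B12 (-0.34) and CYB5A (-0.20). Among filamentous arrays, replicate 1 was low for CYB5B (-1.01) and HSD17B4 (-0.46). As a description over 16 arrays, the deviations from the stage means correlated at 0.67 between CYB5B and HSD17B4. The value was 0.48 between CYB5A and HSD17B12 and -0.48 between CYB5B and HSD17B12. That of CYB5B with HSD17B4 rests largely on small spherical replicates 3 and 4 and filamentous replicate 1. That of CYB5A with HSD17B12 rests largely on small spherical replicate 1. Within a family the value was 0.11 for CYB5A with CYB5B and -0.24 for HSD17B4 with HSD17B12. The values of the 4 genes on an array come from the same labelled target.

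Other genes of the pathways the members belong to were sparsely measured. Of 26 listed genes of steroid synthesis outside the members, 4 were measured. STAR, which brings cholesterol into mitochondria, passed in the 3 contrasts against small spherical embryos, by 1.72 ± 0.23 (SE, adjusted p = 0.00207), 2.02 ± 0.23 (0.00029) and 1.93 ± 0.23 (0.000499) in large spherical, tubular and filamentous embryos. CYP11A1, the side-chain cleavage enzyme, differed by 0.99, 1.12 and 1.19, CYP17A1, which is dim, by 0.77, 1.95 and 2.12, and CYP19A1, the aromatase, by 0.37, 0.18 and 0.30, none of them past the threshold. The corresponding values were 0.83, 0.61 and 0.56 for CYB5A and 0.89, 0.79 and 0.55 for HSD17B4. The sizes of these differences were not tested against each other.

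**Figure D5:**
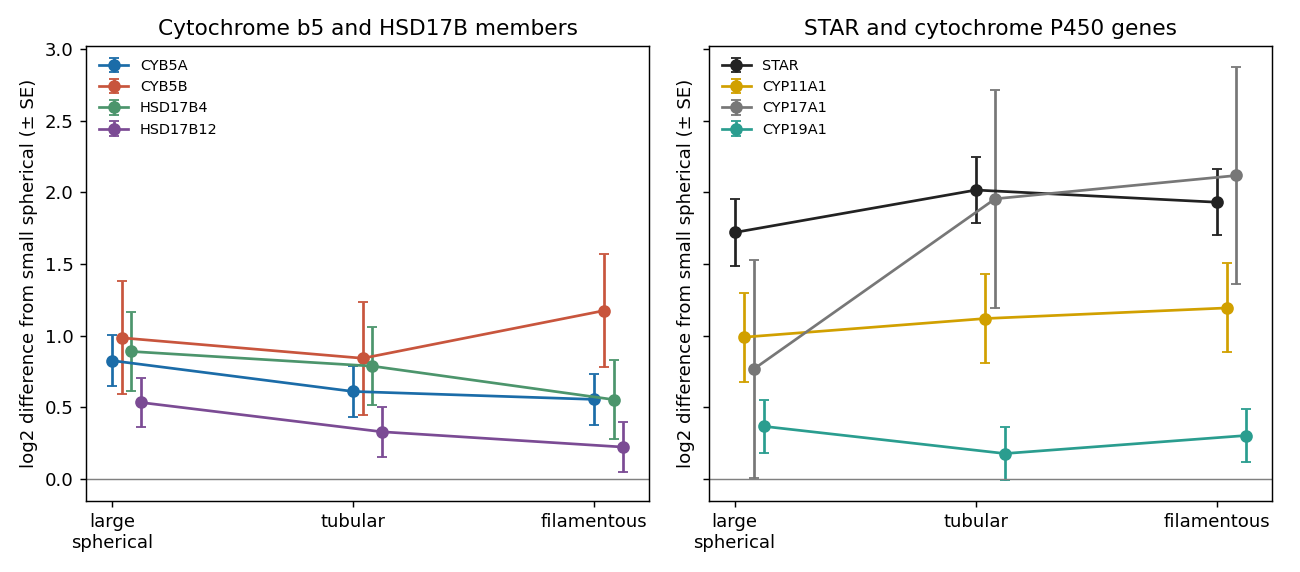
Log2 difference of large spherical, tubular and filamentous embryos from small spherical ones (± SE of the limma fit) for the 4 members on the left and for STAR, CYP11A1, CYP17A1 and CYP19A1 on the right, slightly offset sideways. CYB5A is at 0.83, 0.61 and 0.56 along the axis and STAR between 1.72 and 2.02, and of the values plotted the 3 of STAR passed the test.

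None of 19 listed partners of cytochrome b5, its reductases and desaturases among them, had a probe with a single symbol. Of 21 genes of fatty acid activation and elongation, the pathway of HSD17B12, 4 were measured, with 3 positive and 1 negative from small to large spherical embryos (median 0.28) and 0 past the threshold by limma. ACSL3, which activates long-chain fatty acids, had the highest of these differences (1.62 ± 0.35, SE, adjusted p = 0.0545), and HACD3, which acts in the cycle after HSD17B12, one of -0.02. Of 33 peroxisomal genes, the compartment of HSD17B4, 2 were measured: ABCD3, a fatty acid carrier, differed by 0.26 and SCP2, a sterol carrier, by 0.35, both with an adjusted p above 0.8. Of 17 genes of mitochondrial beta-oxidation 2 were measured, ACADM (0.28) and HADHB (-0.45), and neither passed.

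Markers of the cell types in a conceptus were read beside these results. Of 12 trophectoderm markers 5 were measured, and their summed intensity was 398 to 631 in small spherical, 518 to 650 in large spherical, 514 to 623 in tubular and 442 to 687 in filamentous embryos. KRT18, at a mean of 250 to 275 in every stage, made up much of this sum. From small to large spherical embryos 4 of the 5 differences were above 0 and their median was 0.36: PLAC1 differed by 1.07, SFN by 0.73, KRT19 by 0.36, KRT8 by 0.34 and KRT18 by -0.04. In filamentous embryos the median was 0.51. PLAC1 was the 1 of the 5 that passed, in tubular and in filamentous against small spherical embryos. The 6 measured of 14 hypoblast and yolk sac markers summed to 399 to 510 in small spherical, 416 to 512 in large spherical, 442 to 514 in tubular and 525 to 709 in filamentous embryos. From small spherical to filamentous embryos 4 of these 6 had a positive and 2 a negative difference, with a median of 0.38, and TF, transferrin, which was lower on every filamentous than on every small spherical array, differed by -1.37 (adjusted p = 0.158). The 4 measured of 9 mesoderm markers summed to 217 to 228, 186 to 236, 222 to 255 and 229 to 296 in the 4 stages. None of 6 epiblast markers was measured. CD3E, the 1 measured of 9 blood markers, read 0.33 to 4.34, and PGR, the 1 measured of 6 endometrial markers, 0.517 to 11.2. No value of any probe was 0, so a low reading alone does not show that a transcript was present. The part of cell type proportions in the members' differences was not tested.

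The genes whose log2 intensity followed each member most closely over the 16 arrays are given as a description among 633 other genes. For CYB5A they were HMGB1, a chromatin protein (r = 0.79, rho = 0.70), ATXN10 (r = 0.79, rho = 0.69) and IL12A, an interleukin subunit (r = 0.76, rho = 0.79). CYB5B was followed by NEK3, a kinase (r = 0.94, rho = 0.91), ESR2, an oestrogen receptor (r = 0.91, rho = 0.83), and SFN, an epithelial adaptor protein and one of the trophectoderm markers (r = 0.86, rho = 0.79). NEK3 averaged 211 ± 80.6 (SD, n = 4), 371 ± 91.4, 349.9 ± 60.4 and 369 ± 70.7 over the 4 stages, and so was lowest in small spherical embryos as CYB5B was. HSD17B4 was followed by SOD1, a superoxide dismutase (r = 0.95, rho = 0.84), CALD1, an actin-binding caldesmon (r = 0.91, rho = 0.80), and CARHSP1 (r = 0.90, rho = 0.82). SOD1 averaged 103 ± 27.5, 177 ± 26.7, 166 ± 15.8 and 138 ± 22.5, with the same order of stages as HSD17B4. For HSD17B12 the values were lower: HMGB1 (r = 0.70, rho = 0.77), CCT8, a chaperonin subunit (r = 0.69, rho = 0.76), and NAP1L1, a histone chaperone (r = 0.67, rho = 0.75). Without the 2 arrays on which the member lay farthest from its median, r ranged from 0.60 to 0.88 over these 12 relations. IL12A (stage means of 2.47 to 10.6), ESR2 (14.4 to 38.0) and NAP1L1 (13.9 to 24.7) were dim beside array medians of 62.8 to 71.4. The probes of NEK3, SOD1 and CALD1 lie 8, 13 and 10 probe numbers from that of the member they follow.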

How the data were processed

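The authors' deposited table gave 1 linear intensity per probe for 1015 probes on 16 arrays (0 columns were left out). Per the labels, amplified total RNA was made into a radioactive target and hybridised to a membrane of cDNA products, and the scanning, background correction and normalization are not given in the sources at hand. Intensities ran from 0.12 to 805 with no known background feature, and no value of the 4 genes was the maximum of its array. Array medians spanned 0.185 on the log2 scale, under a limit of 0.2, so values were taken to log2 without offset or scaling. The 1 probe with the same value on every array was left out. Of the 1015 probes 676 had 1 symbol, and a gene with several probes was represented by the brightest.

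Stage means over the 16 arrays were modelled in R 4.3.3 by limma 3.58.1, with an F test and 6 contrasts, two-sided, adjusted by Benjamini-Hochberg over 1014 probes. Ratios of 2 genes within an array were compared by exact permutation tests. On 20 simulated sets for large minus small spherical embryos, with 200 of 1014 probes changed, the fit recovered 20.8% of changes of 0.5 on the log2 scale, 66.1% of those of 1 and 92.9% of those of 2. The simulated noise was independent between probes and arrays. With many changed probes the adjustment is also more lenient than in the data, where 4 probes passed in this contrast. These shares may therefore be higher than the recovery here. Same-numbered arrays of the large and small spherical stages shared deviations from their stage means (correlations of 0.219 to 0.495 in 4 of 4 pairs). This is a hint from the data and not the labels. In the 5 other contrasts at least 1 pair stayed under 0.1, while the pair numbered 1 was at 0.27 to 0.469.

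The members, lists and alternatives were chosen with earlier results of these data known. Named genes were the members, the 3 genes with the highest Pearson r with each, STAR, CYP11A1, CYP17A1, CYP19A1 and list genes past the threshold. ACSL3, HACD3, ABCD3, SCP2, ACADM, HADHB, CD3E and PGR were named after their values were seen. Plots were drawn with matplotlib 3.10.9.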

Additional observations from a re-analysis of the deposited data

How the results depend on the processing

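Each difference was recomputed under 29 alternatives, each F test under 28 and each ratio under 12. No alternative turned the sign of a member's difference from small spherical embryos, and HSD17B4 and HSD17B12 passed in none. CYB5A in large minus small spherical embryos passed in 9 of 29 (adjusted p of 0.00554 to 0.304 over all 29). The difference was 0.83 without the dimmest 25% of probes and with a trend and robust prior. It was 0.76 with an offset of 10, 0.92 with array weights and 0.90 after detrending along probe number. On the arrays numbered 2 to 4 it was 1.02. CYB5A also passed with replicate 1 of the small spherical or of the filamentous stage left out. The former held its highest small spherical reading, which the arrays numbered 2 to 4 also leave out. The remaining setting was a term for the arrays numbered 1 against the others (0.83, adjusted p = 0.032). No label names these arrays as a batch, and the split follows their scores on the first principal component of these data. The setting of arrays numbered 2 to 4 rests on the same split. With array weights CYB5A also passed in tubular minus small spherical (0.65) and in the F test (F = 11.8). There 29 and 7 of 1014 probes passed, in that order, against 4 in each in the main fit. Small spherical replicate 3 and filamentous replicate 1 held the highest and the lowest CYB5B reading of their stage, in that order. With both taken out, CYB5B passed in large (1.32) and in filamentous (1.85) minus small spherical and in the F test (F = 12.3). In each of these cases 1 member passed, where 0 did otherwise. With the replicate number as a block the log2 differences of large minus small spherical were unchanged by construction (0.83 for CYB5A). Their limma adjusted p was 0.0605 for CYB5A, 0.0808 for HSD17B4, 0.189 for HSD17B12 and 0.195 for CYB5B. Without the block it was 0.0545, 0.165, 0.192 and 0.362, in that order. No member's call changed in any contrast or in the F test.

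With 1 array left out at a time, 0 to 1 members passed in each contrast against small spherical embryos and in the F test. The number of all 1014 probes that passed moved as well. In large minus small spherical it was 4, 1, 26 and 1 without small spherical replicates 1 to 4, in that order. In filamentous minus small spherical it was 28 without small spherical replicate 3, against 9 with all arrays. CYB5A ran from 0.74 to 1.00 in large, 0.52 to 0.79 in tubular and 0.47 to 0.73 in filamentous minus small spherical, with F from 5.28 to 15.9, and CYB5B from 0.83 to 1.51 in the last. Signs turned in tubular minus large spherical for CYB5B (-0.29 to 0.048) and in filamentous minus tubular for CYB5A (-0.13 to 0.0083). They also turned in the ratio of CYB5B over CYB5A in large (-0.10 to 0.56) and tubular (-0.027 to 0.64) minus small spherical, and in that of HSD17B12 over HSD17B4 in filamentous minus small spherical (-0.60 to 0.022). The cause of these changes was not tested. With no known background signal, depth cannot be set against these values.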

Other observations

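When a smooth trend along probe number was taken out of each array, an alternative for these relations that was added after the data had been seen, the 3 genes closest to CYB5A over the 16 arrays were STAR (r = 0.81), CTSC, a lysosomal protease (r = 0.78), and PLAC1, a trophoblast gene (r = 0.76), in place of HMGB1, ATXN10 and IL12A, which then had r of 0.68, 0.71 and 0.64. For CYB5B, NEK3 (r = 0.92) and ESR2 (r = 0.84) stayed among the 3 and KDR, a vascular receptor, entered (r = 0.84). HSD17B4 kept SOD1 (r = 0.95) and CALD1 (r = 0.91), and HSP90AB1, a chaperone, took the place of CARHSP1 (r = 0.90). For HSD17B12, RAB1A, a regulator of vesicle transport, came first (r = 0.73), followed by HMGB1 (r = 0.68) and CCT8 (r = 0.67), and NAP1L1 dropped out. This step thus replaced all 3 genes of CYB5A and 1 gene of each other member, and these values are descriptions without a test.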
